A study of Homo sapiens with 4 samples.

Results

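The integrin and laminin genes comprised 38 protein-coding genes, 26 integrin subunits and 12 laminin chains. They were chosen by symbol from the RefSeq annotation of GRCh38: ITGA with a number or with D, E, L, M, V or X, ITGA2B, ITGB1 to ITGB8, and LAMA, LAMB or LAMC with a digit. Their members were the accessible regions that overlapped a gene span extended by 10 kb on both sides. These were 295 of 125986 regions, and 4 of the 295 belonged to 2 member genes each. The cells were A375, an established human melanoma line, and open DNA was mapped by ATAC-seq, where the transposase Tn5 inserts adapters into accessible sites. Treatment was 1 mM octanoate, a fatty acid of medium chain length, for 48 h. Control cells received its vehicle, isopropanol, for the same time, and both groups were grown in DMEM with fetal bovine serum. There were 2 libraries in each group, and the labels do not say whether these came from separate cultures, so p-values may measure technical spread only.

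Integrins are cell surface receptors made of 1 alpha and 1 beta subunit, which tie the cytoskeleton to the extracellular matrix and signal in both directions. Laminins are the main adhesive proteins of basement membranes, each assembled from an alpha, a beta and a gamma chain, and several integrins bind them. In melanoma, integrins of the ITGAV and ITGB1 families are known for their part in attachment, invasion and survival.

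Only the authors' comparison of octanoate with vehicle was analysed here, so each region had a mean normalized read count over the 4 libraries, a log2 fold change and its standard error, and 0 columns gave a value for a single library. For chosen regions the level in each group was derived from the mean and the fold change and is called the implied level. The authors adjusted p-values over 11185 regions whose mean reached 63.8 normalized reads, here called tested regions. Over all tested regions of the authors' deposited table, 1.02% fell under an adjusted p of 0.05 (Benjamini-Hochberg, by DESeq2), each with a higher value after octanoate. Fold changes as a whole lay above 0, with a median of 0.23 on the log2 scale over nuclear regions and 0.19 over tested nuclear regions per the authors' deposited table. Per the labels' protocols, libraries averaged 40000000 to 50000000 paired-end reads, and the depth of each single library is unknown.

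Sequences just before the transcription start are shown for 6 members whose start lay at a tested region. ITGB8, LAMC1 and ITGAV had the start regions with the highest means, ITGB1 encodes the most widely shared beta subunit, and LAMB3 and LAMA4 had the highest and the lowest fold change among tested start regions. Each run is the 250 bases before a RefSeq start in GRCh38.p14, 5′ to 3′ on the gene's strand, and each lay wholly inside a listed region. Capitals mark matches, on either strand, to the motifs GGGCGG of SP and KLF factors, TGANTCA of AP-1 and GGAATG of TEAD factors.
ITGB8 (chr7:20330650-20330899, plus strand): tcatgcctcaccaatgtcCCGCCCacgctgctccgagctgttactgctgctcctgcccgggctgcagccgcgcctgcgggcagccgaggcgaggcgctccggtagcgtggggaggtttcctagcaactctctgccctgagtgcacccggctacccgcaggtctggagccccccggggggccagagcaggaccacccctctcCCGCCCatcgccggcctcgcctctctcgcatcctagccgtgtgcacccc
LAMC1 (chr1:183023170-183023419, plus strand): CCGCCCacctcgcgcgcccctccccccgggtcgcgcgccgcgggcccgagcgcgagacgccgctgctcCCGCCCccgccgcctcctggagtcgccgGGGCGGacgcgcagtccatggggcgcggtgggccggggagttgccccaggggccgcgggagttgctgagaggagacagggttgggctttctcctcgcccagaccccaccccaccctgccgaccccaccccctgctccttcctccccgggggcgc
ITGAV (chr2:186589806-186590055, plus strand): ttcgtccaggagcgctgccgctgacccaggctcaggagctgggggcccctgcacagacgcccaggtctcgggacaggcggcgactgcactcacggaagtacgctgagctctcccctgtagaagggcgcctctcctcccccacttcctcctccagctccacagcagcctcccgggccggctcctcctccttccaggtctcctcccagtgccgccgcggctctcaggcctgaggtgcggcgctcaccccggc
ITGB1 (chr10:32958231-32958480, minus strand): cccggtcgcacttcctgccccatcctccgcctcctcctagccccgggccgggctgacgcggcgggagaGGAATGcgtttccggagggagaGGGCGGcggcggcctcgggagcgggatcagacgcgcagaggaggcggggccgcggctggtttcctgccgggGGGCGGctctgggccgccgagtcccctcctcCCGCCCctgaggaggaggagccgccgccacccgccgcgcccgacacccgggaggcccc
LAMB3 (chr1:209651375-209651624, minus strand): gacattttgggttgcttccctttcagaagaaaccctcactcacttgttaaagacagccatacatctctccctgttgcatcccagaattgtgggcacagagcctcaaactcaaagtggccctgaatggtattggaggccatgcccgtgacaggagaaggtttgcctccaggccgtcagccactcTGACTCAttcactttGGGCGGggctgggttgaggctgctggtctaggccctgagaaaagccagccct
LAMA4 (chr6:112254568-112254817, minus strand): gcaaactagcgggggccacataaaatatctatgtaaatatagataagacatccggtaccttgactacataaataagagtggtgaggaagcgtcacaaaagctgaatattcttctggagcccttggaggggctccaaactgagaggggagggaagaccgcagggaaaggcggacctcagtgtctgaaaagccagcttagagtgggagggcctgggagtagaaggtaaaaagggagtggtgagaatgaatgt
ITGB8 held 2 and LAMC1 3 copies of the SP and KLF motif, and ITGB1 held 3 beside 1 TEAD motif. The LAMB3 sequence, before the most downstream of its 3 listed starts, held 1 AP-1 and 1 SP and KLF motif, while ITGAV and LAMA4 held no match to any of 5 motifs searched. No match to 1 motif overlapped a match to another in these sequences. The other motifs searched were CACGTG, the E-box bound by MITF and MYC, and ACAAAG of SOX factors.

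Of the 38 genes, 26 had a start in the RefSeq promoter table, with 33 starts in all. GGGCGG stood before 17 of these starts (51.5%), against 53.7% of all 22198 starts of protein-coding genes. TGANTCA stood before 2 (6.06%, against 5.36%), GGAATG before 4 (12.1%, against 10.5%), CACGTG before 1 (3.03%, against 7.37%) and ACAAAG before 1 (3.03%, against 11.6%). The shares for the member starts thus lay near those of all starts for the first 3 motifs and below them for the others, which rested on 1 start each. The 23 member starts whose window touched a listed region had a median GC content of 70.0%, and the 10 that touched none had 49.2%. The median over all starts was 62.0%. ITGA3, ITGA7, ITGA9, ITGAD, ITGAL, ITGAX, ITGB2, ITGB3, ITGB4, LAMA1 and LAMC3 were among the genes with no start in that table.

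No integrin or laminin region passed the threshold. Among 295 member regions 29 were tested, and 0 had an adjusted p under 0.05 per the authors' deposited table (DESeq2), against 1.02% of all tested regions. At an unadjusted p under 0.05, 3 of the 29 were higher (10.3%) and 0 were lower per the authors' deposited table. The background was 14.8% higher and 0.107% lower, so the members' share did not exceed it. Tested members per the authors' deposited table ran from -0.14 to 0.51 with a median of 0.13, and 21 of 29 lay above 0. The same median over all tested nuclear regions was 0.19, with 85.7% above 0. Every 95% interval, computed from the authors' standard errors, lay below a doubling and included the tested median. The intervals of 26 of the 29 also included 0. These intervals are wide, with a median standard error of 0.22, so the missed threshold does not show that accessibility stayed the same.

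**Figure D1:**
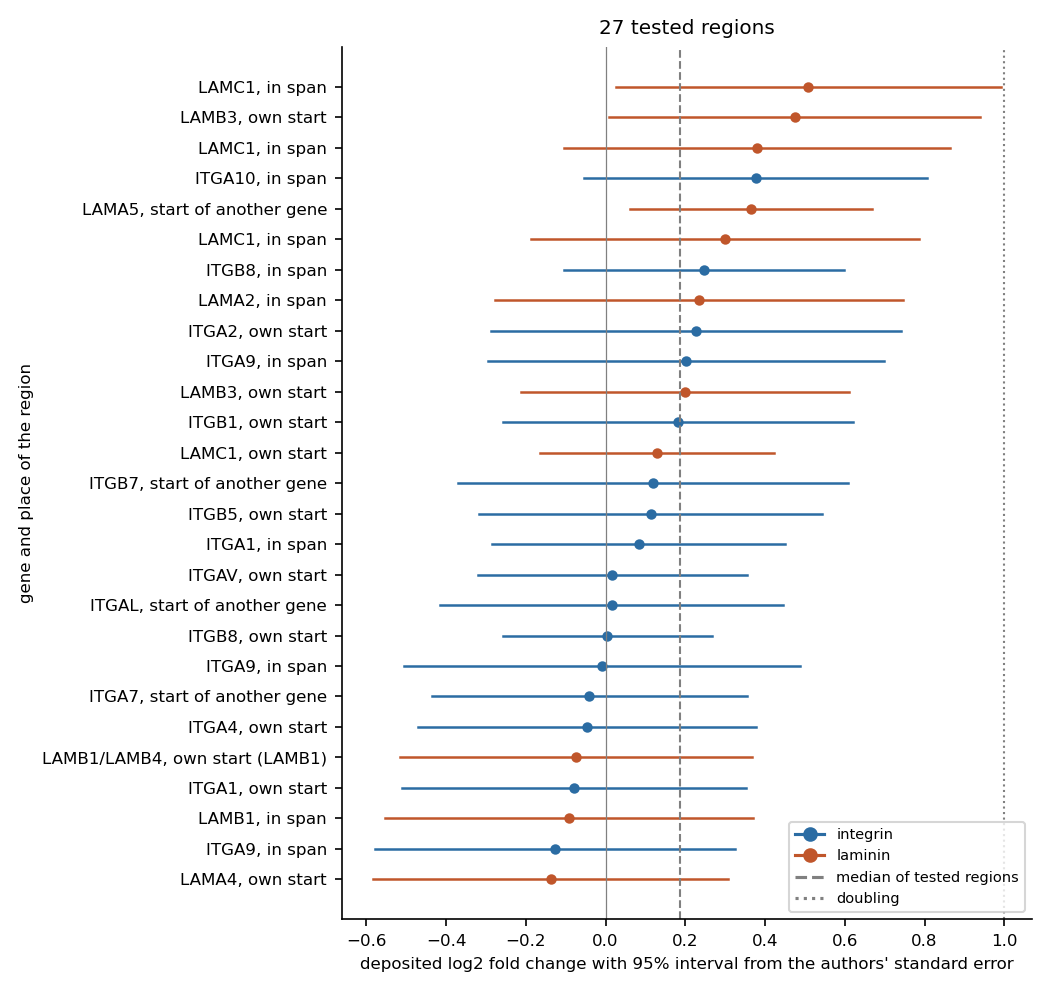
Deposited log2 fold changes (x axis) of 27 of the 29 tested regions, each named by gene and place (y axis), with 95% intervals from the authors' standard errors; the dashed line is the median of all tested nuclear regions and the dotted line a doubling. The points run from -0.14 at the LAMA4 start to 0.51 within LAMC1, and 3 intervals lie wholly above 0.

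The 3 regions with an unadjusted p under 0.05 all lay in windows of laminin genes. The first lay within LAMC1, the gamma chain of most laminins (chromosome 1, 183069703 to 183071686), where the implied level was 60.3 normalized reads in vehicle and 85.8 in octanoate. Its log2 fold change was 0.51 with a 95% interval of 0.026 to 0.99 and an adjusted p of 0.305 per the authors' deposited table (DESeq2). The second lay at the most downstream start of LAMB3 (chromosome 1, 209650993 to 209651735), the beta chain of the laminin that anchors epidermis. Its implied level was 65.8 in vehicle and 91.3 in octanoate, with a log2 fold change of 0.47, an interval of 0.0097 to 0.94 and an adjusted p of 0.322 per the authors' deposited table (DESeq2). The printed LAMB3 sequence lies inside this region. The third had the smallest p, with a log2 fold change of 0.37, an interval of 0.062 to 0.67 and an adjusted p of 0.222 per the authors' deposited table (DESeq2). It lay in the flank of LAMA5 (chromosome 20, 62301781 to 62303760) and overlapped the start of ADRM1, which encodes a ubiquitin receptor of the proteasome, so its place in the member list comes from the 10 kb window. After the tested median was subtracted, no tested member had an unadjusted p under 0.05, where 3.16% of all tested regions were higher and 1.01% lower. The adjusted p of no member fell under 0.05 on that scale (Benjamini-Hochberg), against 0.0536% of all tested regions.

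Over all 295 regions, including those too weak to be tested, the median log2 fold change was 0.25 per the authors' deposited table, against 0.23 for all nuclear regions. The share above 0 was 71.5%, against 72.1%. The middle 50% of members ran from -0.040 to 0.53, and that of all nuclear regions from -0.039 to 0.52. Members thus spread about as widely as the rest of the table. They also resembled it in strength, with a median mean of 14.4 normalized reads against 12.2, a median width of 469 bp against 437 bp, and 9.83% tested against 8.88%. With no value per library, no difference between members and the rest could be tested over samples.

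**Figure D2:**
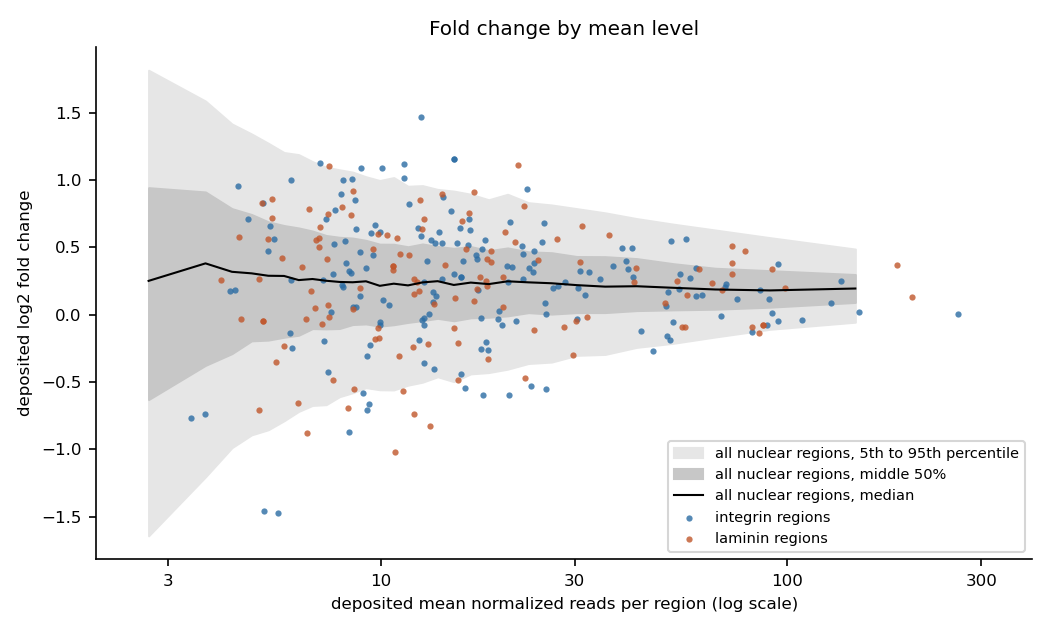
Deposited log2 fold change (y axis) against the deposited mean normalized reads per region (x axis, log scale), with integrin and laminin regions as points and all nuclear regions as shaded percentiles and a median line over bins of equal size. Member points spread widely at low means and narrow at high means, as the shaded ranges do, and tested members stay between -0.14 and 0.51.

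By gene, the number of regions ranged from 1 at ITGAL to 29 at ITGA9, with a median of 7. The medians of 34 genes lay above 0 and those of 4 (ITGA1, ITGA4, LAMA3 and LAMB1) below 0, and 22 lay above the median of all nuclear regions. Only 20 genes had a tested region. For 5 of these 20 (ITGA7, ITGAL, ITGB7, LAMA5 and LAMB4) each tested region overlapped the start of a neighbouring gene, which leaves 15 with a tested region of their own.

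**Figure D3:**
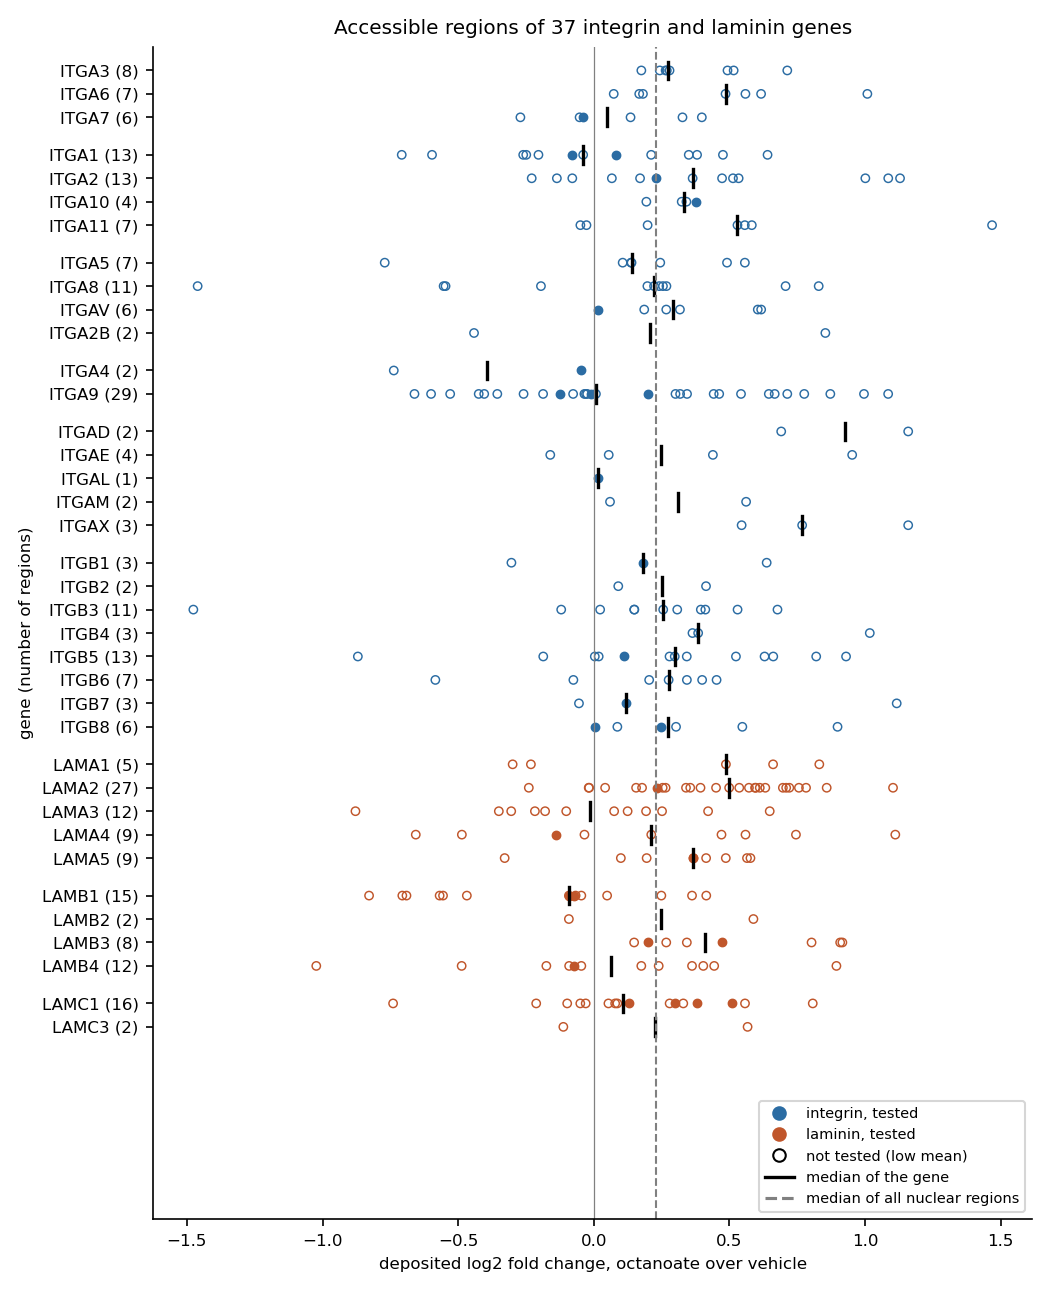
Deposited log2 fold change (x axis) of each region of 37 of the 38 genes (y axis, number of regions in parentheses), filled where tested; black bars are gene medians and the dashed line is the median of all nuclear regions. LAMA2 regions lie mostly above 0 and LAMB1 regions mostly below 0, while the points of most genes fall on both sides.

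Of the 16 LAMC1 regions 4 were tested, and all 4 lay above 0, at 0.13 to 0.51 per the authors' deposited table, with 0 past the threshold. Of all tested regions on chromosome 1, 88.0% lay above 0, and 1.02% of all tested regions passed the threshold. The LAMC1 start (chromosome 1, 183022138 to 183024585) was one of the strongest member regions, with an implied level of 193 normalized reads in vehicle and 211 in octanoate. The log2 fold change there was 0.13, with an interval of -0.16 to 0.42 and an adjusted p of 0.722 per the authors' deposited table (DESeq2). Within the gene, the other tested regions at 16.6, 37.2 and 47.3 kb past the start stood at 0.30, 0.38 and 0.51 per the authors' deposited table. All of their intervals overlap that of the start, so an increase along the gene is not resolved. The remaining 12 LAMC1 regions were weaker and ran from -0.74 to 0.81 per the authors' deposited table. LAMC3, another gamma chain, had 2 weak regions, at -0.11 and 0.57 per the authors' deposited table.

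**Figure D4:**
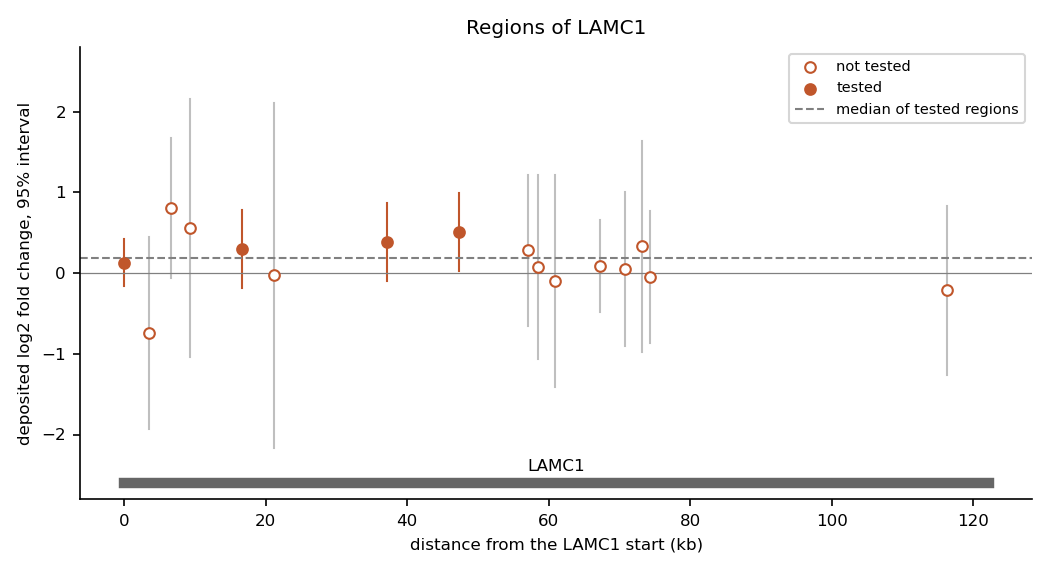
Deposited log2 fold change with 95% intervals from the authors' standard errors (y axis) of the regions of LAMC1 against distance from the LAMC1 start (x axis, kb), with a bar below for the gene span and a dashed line at the tested median of 0.19. Tested regions (filled) lie between 0.13 and 0.51, and every interval but that of the LAMC1 region at 0.51 reaches 0 or below.

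Of the 4 laminin beta chains, LAMB1 had a median below 0 and the others medians above 0. None of the 4 tested regions of these genes passed the threshold, against 1.02% of all tested regions. No difference between these genes was tested. At LAMB1, the beta chain of many basement membranes, 4 of 15 regions lay above 0 and the median was -0.09 per the authors' deposited table, or -0.28 over the 12 regions in the gene span alone. Its start, which also falls in the window of LAMB4, had an implied level of 89.2 normalized reads in vehicle and 84.7 in octanoate. The log2 fold change there was -0.074 with an interval of -0.52 to 0.37 per the authors' deposited table. LAMB3 had 8 of 8 regions above 0 and a median of 0.41 per the authors' deposited table. The upstream LAMB3 region, over its other 2 starts, stood at 0.20 (interval -0.21 to 0.61) per the authors' deposited table. Intervals of the tested LAMB1 and LAMB3 regions overlap. LAMB2, a beta chain of kidney and neuromuscular basement membranes, had 2 regions, its start at -0.092 and the start of USP19 at 0.59 per the authors' deposited table. LAMB4 had 12 regions with a median of 0.065 per the authors' deposited table, or 0.18 over the 9 in its span alone.

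Laminin alpha chains carry the main binding sites for integrins. Among their 62 regions the median was 0.36 per the authors' deposited table, against 0.23 for all nuclear regions. Only 3 of the 62 were tested, with 0 past the threshold, against 1.02% of all tested regions. LAMA2, the alpha chain of muscle and Schwann cell basement membranes, held 27 of the regions over a span of 633 kb. Of these 24 lay above 0, with a median of 0.50 and a range of -0.24 to 1.10 per the authors' deposited table. Its start stood at -0.017 and its only tested region, 618 kb past the start, at 0.23 (interval -0.28 to 0.75) per the authors' deposited table. Regions of 1 gene share a locus and are not replicates, and all but 1 of the LAMA2 regions were too weak to be tested. LAMA4, an alpha chain of vessel walls, had the lowest tested value of all members at its start, with an implied level of 89.5 in vehicle and 81.4 in octanoate. That log2 fold change was -0.14, with an interval of -0.58 to 0.31, per the authors' deposited table. LAMA5, found in most adult basement membranes, had 8 of 9 regions above 0 and a median of 0.37, but its own start was weak (mean 17.0) and stood at 0.10 per the authors' deposited table. LAMA3, the alpha chain of the epidermal laminin, had 6 of 12 regions above 0 with a median of -0.013, and LAMA1, known from early embryonic basement membranes, had 3 of 5 with a median of 0.49 per the authors' deposited table.

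The integrin beta subunits had 48 regions, 40 of them above 0, with a median of 0.29 per the authors' deposited table. All 5 tested regions lay between 0.0044 and 0.25 per the authors' deposited table, and 0 passed the threshold. Over all tested regions 85.7% lay above 0 and 1.02% passed. The ITGB8 start had the highest mean of all members, with an implied level of 262.9 normalized reads in vehicle and 263.7 in octanoate. ITGB8 pairs with ITGAV and releases TGF-beta from its latent form. Its start thus had the narrowest interval of the tested members, -0.26 to 0.27 around a log2 fold change of 0.0044 per the authors' deposited table. A second ITGB8 region, 21.7 kb inside the gene, stood at 0.25 (interval -0.11 to 0.60) per the authors' deposited table. The ITGB1 start had an implied level of 80.4 in vehicle and 91.2 in octanoate, a log2 fold change of 0.18 with an interval of -0.26 to 0.62 per the authors' deposited table. ITGB5, a partner of ITGAV that binds vitronectin, had a tested region over 2 of its 3 starts, at 0.11 (interval -0.32 to 0.54) per the authors' deposited table. ITGB3, the other vitronectin receptor subunit and a marker of invasive melanoma, had 11 regions, 9 of them above 0, and 0 tested. The strongest of these, in the flank, had a mean of 61.6, just under the lowest tested mean, while the weakest tested member, within LAMA2, had 65.5.

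For the other beta subunits the counts were small. ITGB6, a partner of ITGAV in epithelia, had 5 of 7 regions above 0 and a median of 0.28 per the authors' deposited table. ITGB4, which pairs with ITGA6 in hemidesmosomes, had 3 regions at 0.36 to 1.02 per the authors' deposited table, and the strongest of them overlapped the start of GALK1. ITGB2, the beta subunit of leukocytes, had 2 regions with a highest mean of 13.5. ITGB7, another lymphocyte subunit, had 3, of which the tested 1 overlapped the starts of CSAD and ZNF740.

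Among alpha subunits that bind laminin, ITGA3 had 8 of 8 and ITGA6 7 of 7 regions above 0, with medians of 0.27 and 0.49 per the authors' deposited table. None of these 15 was tested. The ITGA6 start had an implied level of 47.9 in vehicle and 53.8 in octanoate, and its strongest region, within the gene, stood at 0.56 (standard error 0.28) per the authors' deposited table. ITGA7, a muscle subunit, had 6 regions with a median of 0.048 per the authors' deposited table, and 4 of them overlapped starts of RDH5, BLOC1S1 or TMT1B. ITGA7 itself had no listed start, and a region at -0.27 (mean 46.6) overlapped an edge of its span.

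Alpha subunits that bind collagen lay on both sides of 0. ITGA1 and ITGA2 are neighbours on chromosome 5 with 13 regions each. Of these, 6 lay above 0 at ITGA1 and 10 at ITGA2, with medians of -0.039 and 0.36 per the authors' deposited table. The ITGA1 start, shared with the start of PELO, had an implied level of 91.5 in vehicle and 86.6 in octanoate, and the ITGA2 start 65.2 and 76.4. Their log2 fold changes were -0.079 (interval -0.51 to 0.35) and 0.23 (interval -0.29 to 0.74) per the authors' deposited table, so the intervals overlap over most of their length. ITGA10, a collagen receptor subunit of cartilage, had 4 regions at 0.19 to 0.38 per the authors' deposited table, the highest of them tested (implied level 82.5 in vehicle and 107 in octanoate). ITGA11, a fibroblast subunit, had 7 with a median of 0.53 per the authors' deposited table and none tested.

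Alpha subunits that recognise the RGD sequence of fibronectin and vitronectin had 1 tested region among 26. It was the ITGAV start, at an implied level of 149 in vehicle and 151 in octanoate, where the log2 fold change was 0.016 (interval -0.32 to 0.35) per the authors' deposited table. ITGA5, the fibronectin receptor subunit, had 7 regions with a median of 0.14 per the authors' deposited table and a start with a mean of 10.2 only. ITGA8, known from kidney development, had 11 regions, and its start stood at -0.55 (standard error 0.41) with a mean of 25.5 per the authors' deposited table. ITGA2B, the platelet subunit, had 2 regions with a highest mean of 15.8.

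ITGA4 and ITGA9 are related subunits that bind VCAM1 and other ligands. Their 31 regions had the lowest median of the 9 role groups, -0.0087, per the authors' deposited table. ITGA9 held 29 of the 31, and 15 of those lay above 0. Its 3 tested regions stood at 0.20, -0.0087 and -0.13 per the authors' deposited table, with standard errors of 0.23 to 0.25. The ITGA4 start had an implied level of 96.3 in vehicle and 93.1 in octanoate. Leukocyte alpha subunits had 11 distinct regions, with 4 at ITGAE, 3 at ITGAX, 2 each at ITGAD and ITGAM, and 1 at ITGAL, and ITGAX and ITGAD shared 1. Their only tested region overlapped the start of ZNF768, and no member start of this group in the promoter table (ITGAE, ITGAM) had a region.

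Starts were compared with the rest of the members. Of the 26 genes with a listed start, 19 had a region within 1 kb of it and 7 had none: ITGA2B, ITGAE, ITGAM, ITGB6, ITGB7, LAMA3 and LAMB4. The listed start of LAMA3 lies inside its span. A region with a mean of 15.2 and a log2 fold change of -0.10 overlapped the 5′ end of that span. The 21 regions at a member's own listed start had a median log2 fold change of 0.10 per the authors' deposited table, with 61.9% above 0. At starts of all protein-coding genes the median was 0.14 over 12032 regions, with 75.5% above 0. The 264 member regions at no listed start had a median of 0.28, and all such regions 0.25, per the authors' deposited table. Only 15842 of 20052 protein-coding genes had a listed start, so this class can hold starts of the others, including 12 member genes. At ITGA3, ITGA9, ITGB3 and LAMA1, for example, a region of this class overlapped an edge of the gene span. Listed member starts therefore had the lower median of these 2 classes, as did listed starts in the whole table. Among the 12 tested regions at a listed member start 8 lay above 0 (66.7%), and 0 passed the threshold. Among all 5697 tested starts of protein-coding genes 85.7% lay above 0, and 17 passed.

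Start regions differed widely in level between genes. Per kb of region the deposited mean was 106 and 76.8 normalized reads at the 2 start regions of LAMB3, 94.5 at ITGB8, 82.6 at LAMC1, 74.9 at ITGA1 and 74.6 at the first start of ITGAV per the authors' deposited table. It was lowest at ITGA8, at 18.5, and at the second listed start of ITGAV, at 21.6. The median was 38.4 per kb over the member starts and 49.6 over all protein-coding starts. The spread between libraries of these levels is unknown, so neighbours in this order cannot be told apart.

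**Figure D5:**
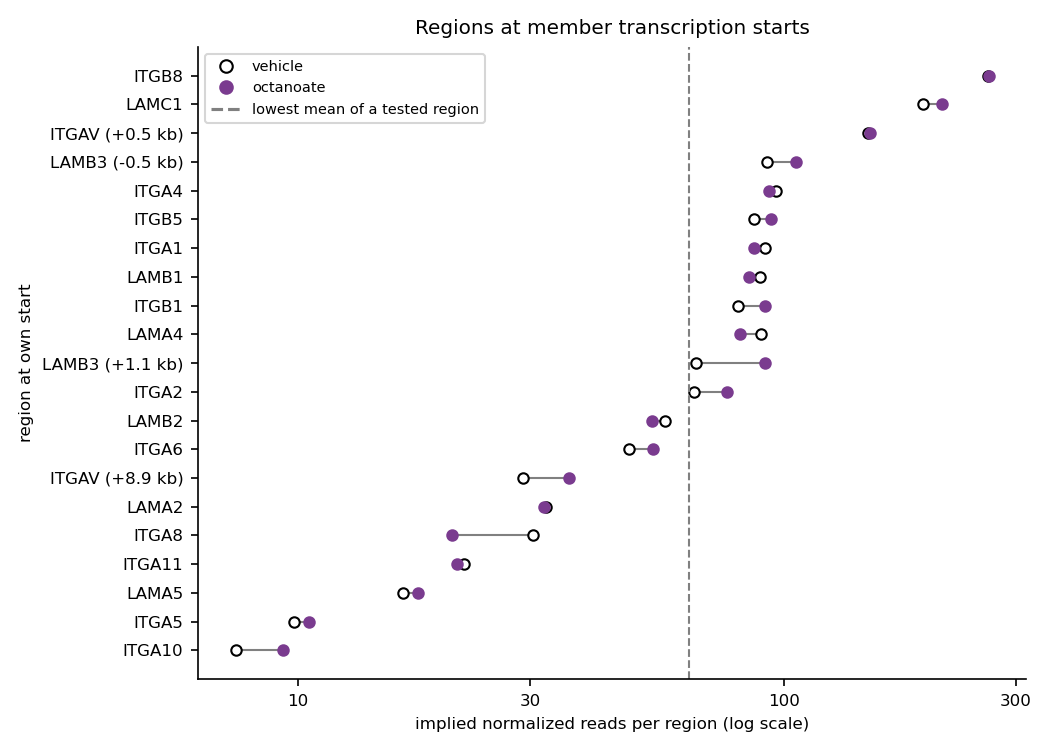
Implied normalized reads per region (x axis, log scale) in vehicle and octanoate at the 21 regions within 1 kb of a member's own start (y axis; kb from the first listed start are given where a gene has 2). Most pairs of points lie close together, from 262.9 and 263.7 at ITGB8 down to 7.44 and 9.31 at ITGA10, with wider gaps at ITGA8 (30.4 and 20.7) and LAMB3 (65.8 and 91.3); the dashed line is the lowest tested mean, 63.8.

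The tested values differed between chromosomes. ITGA10, LAMB3 and LAMC1 are among the members on chromosome 1. The 9 tested regions there had a median log2 fold change of 0.34 per the authors' deposited table. All 9 lay above 0, as did 88.0% of all tested regions on chromosome 1. Of the 8 highest tested members, 6 were on chromosome 1. The other 20 tested members had a median of 0.016 per the authors' deposited table. Of these 12 lay above 0 (60.0%), against 85.3% of all tested regions on other chromosomes. Over all tested regions the medians were 0.21 on chromosome 1 and 0.18 elsewhere, so the members on the other chromosomes lay further below their background than those on chromosome 1 lay above theirs. These medians have no error over samples, and this split was chosen after the values were seen. Within 5 Mb of a chromosome end, where this table has higher values as a whole (median 0.33), the 15 regions of LAMA5, ITGAE and ITGB2 had a median of 0.37 per the authors' deposited table. Members elsewhere had 0.25.

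Larger fold changes were found only in weak regions. A doubling or more was listed for 11 of the 295 regions (3.73%, against 6.02% of all nuclear regions), and a halving or more for 3 (1.02%, against 1.64%). The strongest of these had a mean of 21.8 per the authors' deposited table. At an unadjusted p under 0.05, 8 of the 295 regions were higher (2.71%) and 0 were lower, beside 3.58% higher and 0.179% lower over all nuclear regions. The 5 of these that were not tested lay within LAMA4 (log2 fold change 1.11), ITGA11 (1.47), ITGB5 (0.93) and ITGA6 (0.56) and between ITGAX and ITGAD (1.16), per the authors' deposited table. Their standard errors ran from 0.28 to 0.63, and the authors list their adjusted p as 1, read here as not tested.

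Partners of the integrins showed no called region either. The 32 focal adhesion and integrin signalling genes had 275 regions, 36 of them tested, and 0 with an adjusted p under 0.05 per the authors' deposited table (DESeq2). Across all tested regions 1.02% were called. At an unadjusted p under 0.05, 5 of the 36 were higher (13.9%, against 14.8% of all tested regions) and 0 lower (against 0.107%). The lowest adjusted p, 0.0702, belonged to a region near PXN, which encodes the adaptor paxillin, with a log2 fold change of 0.67 per the authors' deposited table (DESeq2). After the tested median was subtracted its adjusted p was 0.991. The others were near RAP1A, FLNA, DOCK1 and TNS3, at 0.42 to 0.58 per the authors' deposited table. The 20 other ligands and basement membrane partners had 105 regions, 14 of them tested, with 0 past the threshold. At an unadjusted p under 0.05, 2 of the 14 were higher, or 14.3%, again near the 14.8% of all tested regions. They were the start of MFGE8, an RGD ligand, at 0.50 and a region near SPARC, a matrix glycoprotein, at 0.33 per the authors' deposited table. Medians were 0.21 for the signalling genes and 0.20 for the ligands and partners, against 0.23 for all nuclear regions.

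The labelled cell type was checked on marker genes. All 9 melanocyte lineage genes had a region in their window, with a highest mean of 173 normalized reads, and MITF, PAX3 and DCT had a region at their start. MLANA, TYR and TYRP1 had a listed start with no region there, and SOX10, PMEL and S100B had no listed start. Each of 5 leukocyte, 4 epithelial and 3 endothelial genes also had a region, with highest means of 93.3, 42.5 and 49.4. Of these only KDR had one at its own start in the promoter table, where 8 of the 12 had no listed start. Presence of a region in a window therefore does not separate these cell types here, and the part of other cells in the results was not tested.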

How the data were processed

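ATAC-seq libraries were made from A375 cells given octanoate or vehicle, with 2 libraries in each group, and groups were taken from the sample titles. Per the submitters' processing notes the build was hg38, and Trim Galore, cutadapt, FastQC, Bowtie2, Picard, MACS2, featureCounts, DESeq2 and bedtools 2.29.1 were used. The notes give no order or settings, and whether read ends were moved to the Tn5 cut site is not given in the sources used here. The authors deposited 1 table of their DESeq2 comparison. Per the file headers, its signal is the mean normalized read count of a region, its log2 fold change is octanoate over vehicle with a standard error, its score is the Wald statistic, and its p-value is given unadjusted and adjusted. The deposited score equalled fold change over standard error to within 2.31e-14, and the deposited adjusted p-value equalled Benjamini-Hochberg adjustment over the 11185 tested regions. It is listed as 1 elsewhere, which was read as not tested.

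Regions were joined by position to RefSeq genes and starts of GRCh38.p14 with Python 3.11.15, pandas 2.3.3, NumPy 2.4.6 and SciPy 1.17.1, and joins, adjustment and centring were checked on simulated data. Coordinates count from 1. The 95% intervals are normal intervals from the authors' standard errors. Implied levels solve for group levels whose average is the deposited mean and whose ratio is the deposited fold change, so they are approximate. Exons and introns were not used here. With no value per library, 0 tests were made over samples, and counts and medians of members are descriptions. Named were each gene's strongest and start regions, every tested region with an unadjusted p under 0.05, and the 5 highest and 5 lowest tested regions. The 5 untested regions with an unadjusted p under 0.05, the other regions of a described gene and the split by chromosome were chosen after values were seen. Values of 1 member gene are not reported here, though counts and medians over members include it. Members and lists were chosen with earlier results of these data known. Alternatives were other thresholds, adjustment, windows, start distance, filters and centring.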

Additional observations from a re-analysis of the deposited data

How the results depend on the processing

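The count of 0 integrin and laminin regions past the threshold was also 0 with adjustment over all listed regions, at an adjusted p of 0.01 or 0.1, under both centrings, and with the gene span alone or extended by 50 kb (24 and 48 tested regions). Over all tested regions the count of 114 became 25 with adjustment over all listed regions, 35 at 0.01, 333 at 0.1, 6 centred on the tested median and 5 centred on the median of all nuclear regions. The first pair of these raises the bar by construction.

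The members' median of 0.25 was 0.15 with the strongest region of each gene and 0.025 relative to all nuclear regions, and lay between 0.23 and 0.26 in the other settings. The tested members' median of 0.13 became -0.058 relative to all tested regions and 0.016 without chromosome 1, and lay between 0.11 and 0.18 otherwise. Leaving out chromosome 1 and leaving out regions at starts of other genes were chosen after the data were seen. The start median of 0.10 was 0.13 within 3 kb and -0.037 relative to all protein-coding starts. With the gene span alone 10 of 37 gene medians moved by over 0.1 (ITGA2B, ITGAD, ITGAM, ITGAX, ITGB2, ITGB4, ITGB7, LAMB1, LAMB4 and LAMC3), and that of ITGB1 fell below 0, to -0.061 over 2 regions.

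Centring on the tested median, 0.19, subtracts 1 constant. It was followed in 53 regions: each gene's strongest and start regions and all tested regions, without the 1 gene not reported here. Of these 53 regions 14 turned below 0. They became -0.058 (LAMC1 start), -0.0051 (ITGB1), -0.068 (ITGB7), -0.080 (ITGA5 start), -0.17 (ITGAL), -0.13 (ITGAM), -0.037 (ITGB3), -0.019 (ITGA6 start), -0.17 (ITGAV start), -0.087 (LAMA5 start), -0.097 (ITGB2), -0.074 (ITGB5), -0.10 (ITGA1, within the gene) and -0.18 (ITGB8 start).

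No paired analysis was possible because 0 columns hold single libraries, and leaving out a replicate, other scalings and count tests were not run for the same reason. The 29 tested members limit what can be seen: at their median standard error of 0.22 moderate changes would be missed, and 266 weaker regions were not tested.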
